A study of Mus musculus with 25 samples.

Results

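Lungs of irradiated mice that received (S)-FTY-phosphonate (the group radiation+fTyS) were compared with lungs of irradiated mice that received FTY720 (the group radiation+FTY). The comparison takes 6 of the 25 arrays of the series, 3 per group, chosen by their titles alone, and covers all genes measured. All mice were wild-type C57BL/6J females of 14 to 17 weeks and 20 to 25 g, and each array held total RNA of 1 lung sample from 1 mouse. Radiation+fTyS mice had a single dose of 25 Gy to the thorax and 0.1 mg/kg (S)-FTY-phosphonate, injected intraperitoneally 2 times a week. Radiation+FTY mice had the same radiation and the same weight dose and schedule of FTY720. The other groups, all used in the fit, had 3 mice each, except control, with 4 mice given PBS. The groups fTyS, FTY and SEW had (S)-FTY-phosphonate, FTY720 or SEW-2871 without radiation. Radiation+SEW had 25 Gy and SEW-2871, and radiation had 25 Gy alone. Every compound was given at 0.1 mg/kg 2 times a week. How long after irradiation the lungs were taken is not stated in the sources used here.

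FTY720, also known as fingolimod, is an analogue of sphingosine. It is phosphorylated in the body, chiefly by sphingosine kinase 2, to a form that acts on receptors of sphingosine-1-phosphate (S1P), a lipid that tightens the endothelial barrier and guides lymphocytes out of lymphoid organs. (S)-FTY-phosphonate carries phosphorus bound directly to carbon, so that it resembles phosphorylated FTY720 without needing the kinase and is not cleaved by phosphatases as a phosphate is. Since the study asked about S1P analogues in radiation-induced lung injury, the comparison asks whether these related compounds leave different transcript levels in the irradiated lung.

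Levels are given as log2(signal + 16) of 1 probe set per gene, and differences are radiation+fTyS minus radiation+FTY on that scale, which understates changes of dim genes. Of 12937 genes tested, 511 passed an adjusted p of 0.05 in limma with Benjamini-Hochberg adjustment (called below), which is 3.95% of the genes. Of these, 238 genes were higher (1.84%) and 273 were lower (2.11%) in radiation+fTyS. Each array was scaled by the depositors, and the split moved with further scaling: quantile normalization gave 203 higher and 366 lower, and centring each array on its median gave 125 higher and 217 lower. The changes were small, with a median size of 1.26-fold among the called genes, and only 29 of them exceeded 1.5-fold and 4 exceeded 2-fold. The 3 values of one group lay entirely above or below those of the other for 509 of the 511 called genes, and for 21.6% of all genes tested.

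The count rested strongly on single mice. It was 6, 932 and 198 genes without radiation+fTyS replicate 1, 2 and 3, and 17, 48 and 612 without radiation+FTY replicate 1, 2 and 3. A fit of the 6 arrays alone called 0 genes in limma, with 1927 genes at an unadjusted p under 0.05. In bulk lung, fewer cells of a type and less RNA per cell cannot be told apart.

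**Figure D1:**
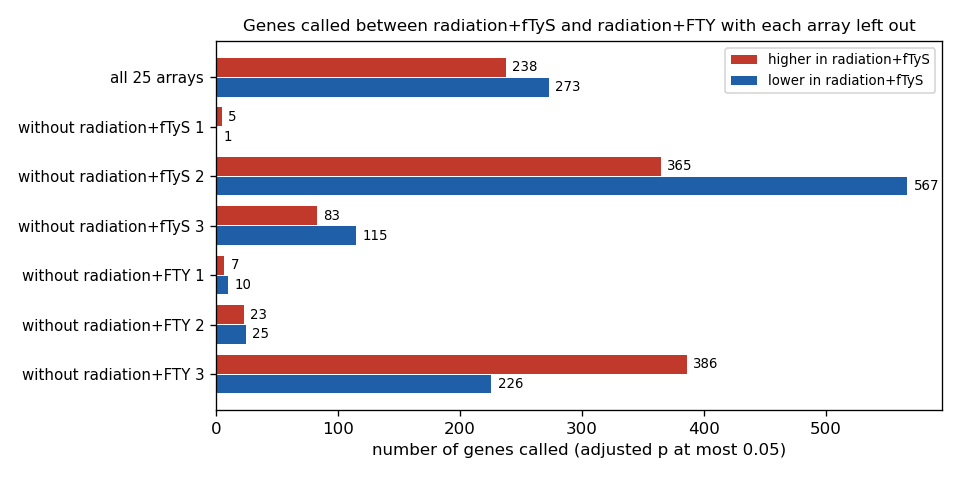
Number of genes called higher (red) and lower (blue) in radiation+fTyS than in radiation+FTY, with all 25 arrays and with each of the 6 arrays left out in turn. The bars shrink to 5 and 1 genes without radiation+fTyS replicate 1 and grow to 365 and 567 genes without radiation+fTyS replicate 2.

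Some measures of the arrays moved with the groups. The 18S ribosomal RNA control probe sets averaged 12.94 ± 0.08 in radiation+fTyS and 11.99 ± 0.66 in radiation+FTY (SD, n = 3 each), a difference of 0.95 without overlap (exact two-sided permutation p = 0.1, the smallest that 3 against 3 allows). The radiation+FTY arrays had 11.39, the lowest of all 25 arrays, 12.70 and 11.88. The arrays outside radiation+FTY lay between 12.08 and 13.06, a range that holds radiation+FTY replicate 2. With this measure as a covariate 0 genes passed in limma, and 1450 had an unadjusted p under 0.05. The 511 called genes were chosen by their differences on these same arrays, so their values in that fit are a description. All 511 kept their sign, the median difference being 0.29 for those called higher and -0.32 for those called lower, against 0.32 and -0.36 without the covariate. Their median standard errors were 0.11 and 0.12 with the covariate, against 0.08 and 0.09 without it. Skeletal muscle genes, markers of tissue around the lung, averaged 6.63, 11.21 and 8.20 on the radiation+fTyS arrays, against 11.96, 7.20 and 11.52 on the radiation+FTY arrays. Adipocyte genes averaged 7.32, 11.53 and 7.95 in radiation+fTyS, against 11.10, 9.49 and 10.15 in radiation+FTY. Both lists overlapped between the groups, and had 0 members called of 17 and of 11 tested. A fit with both list means as covariates called 512 genes, of which 347 were among the 511. The difference between 3′ and 5′ probe sets of Gapdh, a sign of RNA integrity, averaged 0.08 in radiation+fTyS and 0.10 in radiation+FTY.

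**Figure D2:**
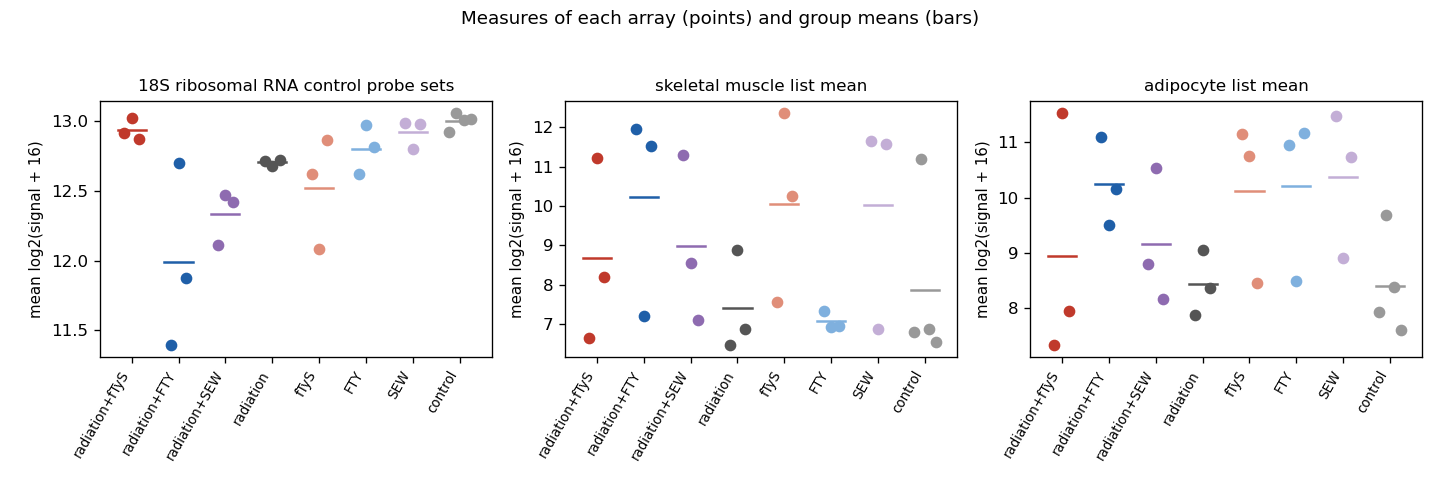
Mean log2(signal + 16) of the 18S ribosomal RNA control probe sets, of the skeletal muscle list and of the adipocyte list on each array (points) with group means (bars), for all 8 groups. Radiation+FTY had the lowest 18S mean, 11.99, while muscle and fat genes spread widely within most groups.

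The genes higher in radiation+fTyS by the largest amounts were led by Thbs1. Thbs1 encodes thrombospondin 1, a matrix glycoprotein that inhibits angiogenesis and activates latent TGF-beta. Its level was 10.64, 10.79 and 10.89 in radiation+fTyS, against 9.17, 9.58 and 10.10 in radiation+FTY. The difference was 1.16 ± 0.25 (SE), or 2.24-fold, with a limma adjusted p of 0.0193. All radiation+fTyS mice were above all radiation+FTY mice and lay near the radiation mice, at 10.67 to 11.30. It was no longer called with radiation+fTyS replicate 1 or 3, or radiation+FTY replicate 1 or 2, left out, when the difference ranged over all 6 left-out fits between 0.94 and 1.40.

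Slc26a4, which encodes the anion exchanger pendrin of airway epithelium, was 7.97, 7.18 and 7.55 in radiation+fTyS, against 6.60, 6.51 and 6.67 in radiation+FTY (difference 0.97 ± 0.27, limma adjusted p = 0.0499). It was called in 1 of 6 fits with an array left out and in 5 of 17 other settings, and not after quantile normalization or median centring. Megf11, a transmembrane protein with EGF-like repeats, was 7.07, 6.95 and 6.79 in radiation+fTyS, against 5.94, 6.31 and 6.02 in radiation+FTY. Its difference was 0.85 ± 0.15 (limma adjusted p = 0.0127), and the groups were well apart. However, the radiation+FTY values lay below the filter on low values (6.49), and a second Megf11 probe set, also below it, differed by 0.02. The call was lost without radiation+fTyS replicate 1 or radiation+FTY replicate 1.

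Thoc2l is related to a subunit of the THO complex that links transcription to mRNA export. It was 7.55, 7.25 and 7.21 in radiation+fTyS, against 6.40, 6.74 and 6.50 in radiation+FTY, with 6.78 to 6.99 in radiation and 7.43 to 7.64 in control. The difference of 0.79 ± 0.11 (limma adjusted p = 0.00277) was called in each of the 6 fits that left out 1 of these arrays, the only one among the 20 genes of largest change for which this held. With the 18S covariate its difference was 0.54 and it was not called.

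The other genes of this rank were Angptl1, a secreted angiopoietin-like factor (0.70), Gprin3 (0.70), Map1b, a microtubule-associated protein (0.69), Gem, a small GTP-binding protein (0.69), Apold1, an early response gene of endothelial cells (0.68), and Herc6, an interferon-induced ubiquitin ligase in the mouse (0.65). Their limma adjusted p-values ran up to 0.0489, that of Apold1. For Angptl1 the levels were 7.90, 7.47 and 7.86 in radiation+fTyS, against 7.18, 6.97 and 6.97 in radiation+FTY. Its other probe sets, below the filter, went the opposite way, by -0.54 and -0.29. Angptl1 was called in 1 of 6 fits with an array left out and in 8 of 16 other settings. Gprin3, Gem, Apold1 and Herc6 were likewise called in 1 of 6 such fits each, and Map1b in 3. The calls in other settings were 13 of 16 for Gprin3, 10 of 18 for Gem and 11 of 17 for Apold1. They were 8 of 18 for Herc6 and 15 of 18 for Map1b. Map1b levels were 9.06, 9.42 and 9.13 in radiation+fTyS, against 8.50, 8.42 and 8.63 in radiation+FTY. Without radiation, the difference between the compounds (fTyS minus FTY) lay between -0.09 for Angptl1 and 0.49 for Apold1 among these 10 genes, and none was called.

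The largest decrease was that of Myh7, the slow myosin heavy chain of muscle. Myh7 was 6.69, 6.70 and 7.10 in radiation+fTyS, against 9.93, 7.86 and 10.76 in radiation+FTY (difference -2.69 ± 0.61, limma adjusted p = 0.0245). The groups did not overlap, and the 2 highest values were on the radiation+FTY arrays with skeletal muscle means of 11.96 and 11.52. With the skeletal muscle list as a covariate the difference was -2.39, and with the 18S covariate it was -1.08 and no longer called. The muscle list did not follow Myh7 on every array, since radiation+fTyS replicate 2 had a list mean of 11.21 but Myh7 at 6.70. Whether muscle in the samples accounts for the Myh7 difference was therefore not tested by that covariate. Ankrd63 was 6.99, 7.11 and 7.10 in radiation+fTyS, against 8.15, 8.98 and 8.25 in radiation+FTY (difference -1.39 ± 0.34, limma adjusted p = 0.0299). Control mice ranged from 6.96 to 9.12 for Ankrd63, a span as wide as both groups together.

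Trib3, a pseudokinase gene induced in amino acid and endoplasmic reticulum stress, was 7.21, 7.57 and 7.38 in radiation+fTyS, against 8.21, 8.54 and 8.19 in radiation+FTY. Its difference of -0.92 ± 0.15 (limma adjusted p = 0.00749) was lost in 1 of the 6 left-out fits and was -0.62 when all its probe sets were averaged. Slc7a5, the light chain of the large neutral amino acid transporter, was 6.66, 6.80 and 6.77 in radiation+fTyS, against 7.47, 7.37 and 7.39 in radiation+FTY (difference -0.67 ± 0.16, limma adjusted p = 0.0302). Wfs1, a membrane protein of the endoplasmic reticulum, was 8.62, 8.79 and 8.78 in radiation+fTyS, against 9.38, 9.23 and 9.47 in radiation+FTY (difference -0.63 ± 0.14, limma adjusted p = 0.0193). Fbxo2, which directs glycoproteins to degradation (-0.74), and Tlcd2 (-0.70) were also lower. With the 18S covariate the differences were -0.32 for Wfs1, -0.30 for Tlcd2, -0.45 for Slc7a5, -1.10 for Trib3 and -1.07 for Fbxo2, and none was called.

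**Figure D3:**
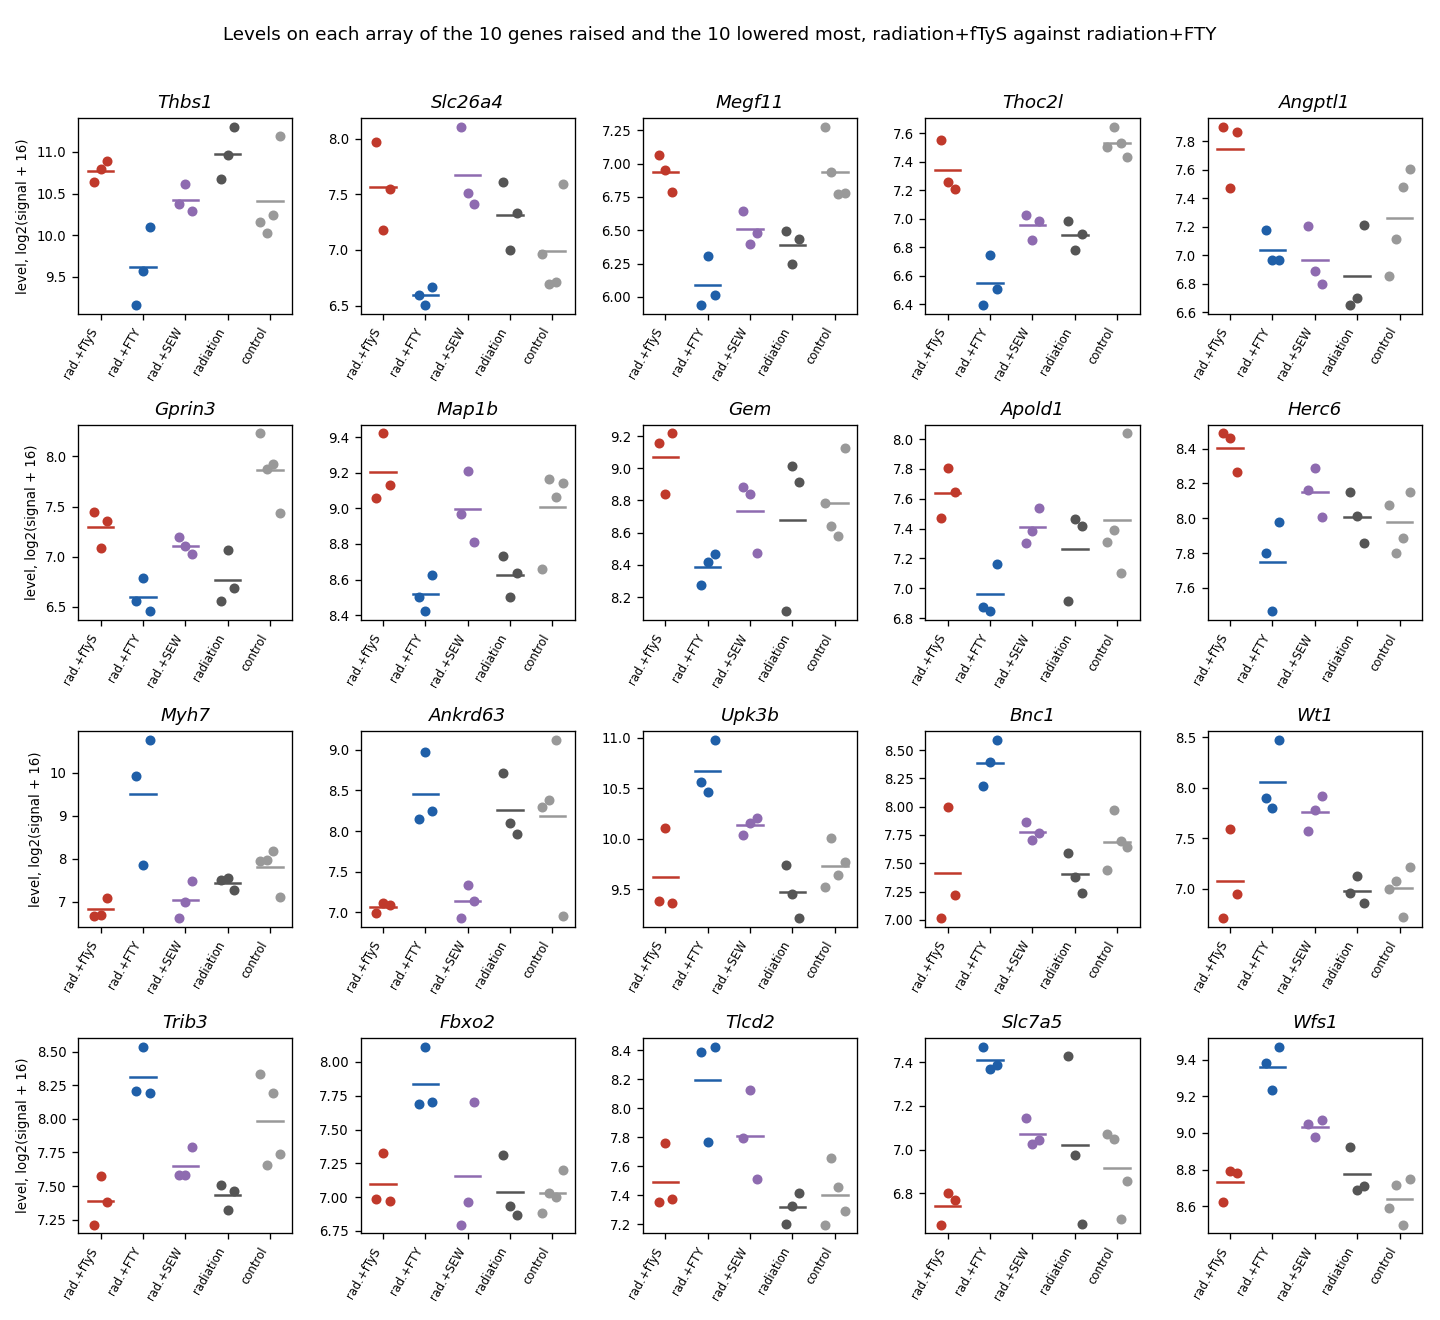
Level, as log2(signal + 16), of the 10 genes with the largest increase (upper 2 rows) and the 10 with the largest decrease (lower 2 rows) among called genes without overlap between groups, on each array (points) with group means (bars). For Thbs1 the radiation+fTyS arrays sit at 10.64 to 10.89, above the radiation+FTY arrays at 9.17 to 10.10, and the vertical scales differ between genes.

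Several mesothelial genes, which mark the cells covering the lung surface, were lower in radiation+fTyS. Of 11 tested, 4 were called lower and 0 higher, with a background of 2.11% of all genes called lower, and all 11 differences were negative. The list median was -0.55, against -0.02 for all genes. Upk3b, a uroplakin of the mesothelial surface, was 9.39, 10.10 and 9.36 in radiation+fTyS, against 10.57, 10.47 and 10.98 in radiation+FTY (difference -1.05 ± 0.22, limma adjusted p = 0.0183). Wt1, a transcription factor of mesothelium, was 6.71, 7.59 and 6.94 in radiation+fTyS, against 7.90, 7.79 and 8.47 in radiation+FTY (difference -0.97 ± 0.25, limma adjusted p = 0.0341). Bnc1, a zinc finger protein, had a difference of -0.98, and Rspo1, a secreted enhancer of Wnt signalling, one of -0.51.

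Within radiation+fTyS, replicate 2 stood nearest to radiation+FTY in all 4 called mesothelial genes. Its mesothelial mean was 9.48, against 8.67 and 8.81 on the other radiation+fTyS arrays and 9.49 to 9.75 on the radiation+FTY arrays. The same array had the highest adipocyte mean of the 25, 11.53. With the skeletal muscle and adipocyte covariates 4 mesothelial genes were called lower and the list median was -0.34. The number called lower was 0 without radiation+fTyS replicate 1 (median -0.33), 9 without radiation+fTyS replicate 2, and 1 or 2 without each of the other 4 arrays. Radiation mice had mesothelial means of 8.69 to 8.87, so that the radiation+FTY arrays lay highest of these 3 groups.

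Several immediate early genes, transcription factors and signalling regulators switched on within minutes of a stimulus, were higher in radiation+fTyS. Of 17 tested, 4 were called higher and 0 lower (background 1.84% higher), 11 did not overlap between the groups (background 9.52% higher), and the median was 0.60. The mean over the list was 10.62, 10.88 and 10.83 on the radiation+fTyS arrays, against 10.30, 10.21 and 10.21 on the radiation+FTY arrays. Radiation arrays had 10.33, 11.07 and 10.96, so the radiation+FTY arrays lay lowest and the radiation+fTyS arrays among those of radiation alone. The number called was 0 without radiation+fTyS replicate 1 or radiation+FTY replicate 1 and 1 to 3 without each of the other 4 arrays, while the median stayed between 0.51 and 0.73. Quantile normalization gave 2 called and a median of 0.58.

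Jun, a subunit of the AP-1 transcription factor, was 11.90, 11.78 and 11.84 in radiation+fTyS, against 11.28, 11.44 and 11.36 in radiation+FTY (difference 0.48 ± 0.09, limma adjusted p = 0.0127). Radiation mice had 11.83 to 11.94. Zfp36, which binds AU-rich elements and speeds decay of cytokine mRNAs, was 10.67, 10.81 and 10.87 in radiation+fTyS, against 10.27, 10.21 and 10.08 in radiation+FTY (difference 0.60 ± 0.16, limma adjusted p = 0.0382). Junb was higher by 0.56 and Ier2 by 0.49. Fos, the partner of Jun in AP-1, was 11.44, 12.28 and 11.76 in radiation+fTyS, against 11.54, 10.89 and 10.83 in radiation+FTY, with overlap and a limma adjusted p of 0.131. Nr4a1, an orphan nuclear receptor, was 11.18, 11.80 and 11.50 in radiation+fTyS, against 10.90, 10.62 and 10.50 in radiation+FTY, without overlap and with a limma adjusted p of 0.132. Without radiation, the list median between the compounds was 0.29 and no member was called.

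The promoters of the called immediate early genes were searched for short motifs that bind signal-activated factors, as were those of Btg2 and Mdm2. Btg2 and Mdm2 are the called p53 target genes described below. The motifs were the cAMP response element TGACGTCA and the CArG box bound by serum response factor, on both strands of the 250 bases before the start. RefSeq promoters of build GRCm38.p6 were at hand for Jun, Junb, Zfp36, Btg2 and Mdm2. Zfp36 held a CArG box, found in 1.5% of all 32851 promoters, and Btg2 held a cAMP response element, found in 1.65%. The Jun, Junb and Mdm2 windows held neither. Both stretches are shown because they carry these matches, which are descriptions and not tested sites, with the motif in capitals.
Zfp36, chr7:28379257-28379306, minus strand: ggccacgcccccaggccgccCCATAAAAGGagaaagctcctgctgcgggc
Btg2, chr1:134079294-134079341, minus strand: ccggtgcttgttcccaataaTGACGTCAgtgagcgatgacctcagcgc

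**Figure D4:**
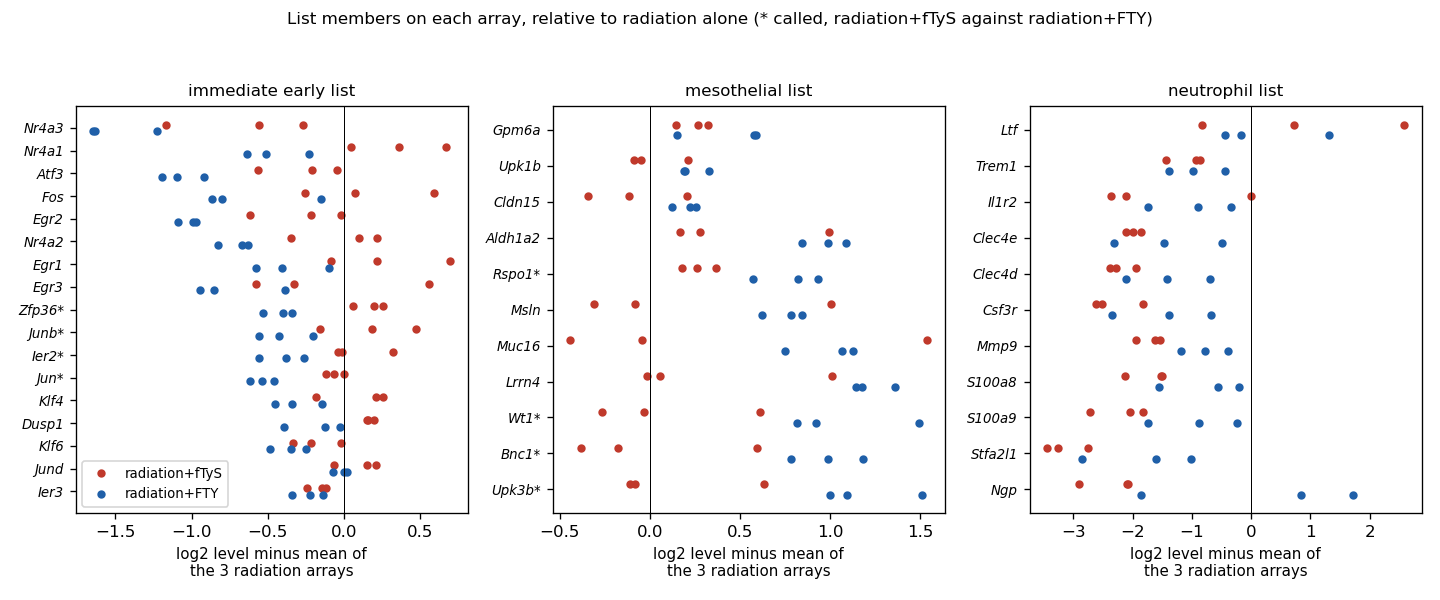
Levels of the immediate early, mesothelial and neutrophil genes on each radiation+fTyS array (red) and radiation+FTY array (blue), as log2 difference from the mean of the 3 radiation arrays, with an asterisk on called genes. Jun, Zfp36, Junb and Ier2 sit higher in radiation+fTyS, and Upk3b, Bnc1, Wt1 and Rspo1 sit lower.

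Of 14 tested genes of the S1P pathway, on which the compounds act, 2 were called (background 3.95%), and none of these was among the 4 receptor genes. S1pr1, the receptor that governs lymphocyte egress and endothelial barrier function, was 10.60, 9.72 and 10.34 in radiation+fTyS, against 9.27, 9.82 and 10.01 in radiation+FTY. The groups overlapped, and the difference of 0.52 had a 95% interval of -0.06 to 1.11 (limma adjusted p = 0.300). S1pr3 differed by 0.11 (interval -0.11 to 0.32), S1pr2 by -0.11 (-0.36 to 0.13) and S1pr4 by -0.02 (-0.37 to 0.33). S1pr5 was below the filter on low values. For 13 of the 14 S1P genes the interval of the chosen probe set lay within 1.5-fold in either direction, S1pr1 being the other. The same held for 82.6% of all genes. Other probe sets of Sgpp1 above the filter differed by 0.01 and 0.72, against 0.04 for the chosen one.

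Of 10 tested genes for S1P enzymes and carriers, 1 was called higher and 1 lower (backgrounds 1.84% and 2.11%). Sphk2, the kinase that phosphorylates FTY720, was 8.14, 8.05 and 8.30 in radiation+fTyS, against 8.56, 8.63 and 8.44 in radiation+FTY. The difference of -0.38 ± 0.09 (limma adjusted p = 0.0222) corresponds to groups without overlap, and radiation mice had 8.30 to 8.38. It was called under 18 of 24 alternative settings. Without radiation the Sphk2 difference was 0.16, and the change between these differences, -0.54, was itself called (limma adjusted p = 0.0362). Plpp3, a phosphatase of lipid phosphates that breaks down S1P outside cells, was 12.66, 12.52 and 12.64 in radiation+fTyS, against 12.24, 12.39 and 12.48 in radiation+FTY (difference 0.24 ± 0.06, limma adjusted p = 0.0377). It was called under 9 of 24 settings. Sphk1, Sgpl1, Sgpp1, Sgpp2, Plpp1, Plpp2, Spns2 and Mfsd2b were not called, with differences from -0.17 (Sgpl1, the lyase that degrades S1P) to 0.27 (Sgpp2, an S1P phosphatase). Of 18 ceramide and sphingomyelin enzymes, only Asah1 was called, and it was higher (background 1.84%). Asah1, the acid ceramidase that releases sphingosine, differed by 0.24 ± 0.06 (limma adjusted p = 0.0294).

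Neutrophil, platelet, erythroid and natural killer cell genes had medians away from 0 but no member called. The 11 neutrophil genes tested had a median of -0.85, with 10 differences negative and 1 positive, of 0.59. Of the 11, 3 did not overlap between the groups, all lower (background 12.1%). With the adipocyte covariate, alone or with the muscle one, 1 member was called higher. Array weights gave 4 called lower and a replicate block 1 called lower. The median was -0.46 without radiation+FTY replicate 3. Their mean was 8.11, 8.35 and 7.88 on the radiation+fTyS arrays, against 8.39, 8.96 and 9.54 on the radiation+FTY arrays and 10.28, 9.99 and 9.36 on the radiation arrays. Mmp9, a gelatinase of neutrophil granules, was 8.11, 8.18 and 7.78 in radiation+fTyS, against 8.54, 8.95 and 9.34 in radiation+FTY (difference -0.92, limma adjusted p = 0.0706). Ngp, a granule protein of immature neutrophils, was 6.02, 5.21 and 6.02 in radiation+fTyS, against 6.26, 8.94 and 9.82 in radiation+FTY (difference -2.59, limma adjusted p = 0.0832). Against radiation alone, the median of the list was -1.99 in radiation+fTyS and -0.95 in radiation+FTY, comparisons that share the radiation arrays.

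Platelet genes had a median of -0.47, with 5 of 6 without overlap, and erythroid genes one of -0.82, with 3 of 4 (background 12.1% without overlap and lower). Ppbp, a platelet chemokine, was 9.23, 9.58 and 9.16 in radiation+fTyS, against 10.06, 10.43 and 11.24 in radiation+FTY. Alas2, which starts heme synthesis in red cell precursors, was 6.76, 7.52 and 7.56 in radiation+fTyS, against 8.46, 9.20 and 10.55 in radiation+FTY. Neither was called (limma adjusted p = 0.0845 and 0.0966). Natural killer cell genes had a median of 0.46 with 3 of 9 without overlap, all higher (background 9.52%). Among them was Klrd1, a natural killer receptor (0.53, limma adjusted p = 0.0617). The T cell and B cell lists, with medians of 0.28 and 0.29, had 0 called and 0 without overlap. Derl3, an endoplasmic reticulum protein of plasma cells, was lower by 0.56 on the log2 scale (limma adjusted p = 0.0117). It was the only called one of 9 genes of its list (background 2.11% lower).

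Structural lung cells differed in few genes. Alveolar type 2 genes, which mark the tissue as lung, averaged 12.47 ± 0.09 in radiation+fTyS and 12.40 ± 0.11 in radiation+FTY (SD, n = 3 each). Alveolar type 2, alveolar type 1, smooth muscle and fibroblast lists had 0 called. Of 12 airway genes, only Cyp2f2 and Scgb3a2, a cytochrome and a secretoglobin of club cells, were called (background 1.84% higher). They were higher by 0.20 and 0.10. Vwf, the von Willebrand factor of endothelium and platelets, was 11.56, 11.33 and 11.64 in radiation+fTyS, against 11.70, 12.16 and 12.20 in radiation+FTY (difference -0.51 ± 0.13, limma adjusted p = 0.0339). It was the only called one of 15 endothelial genes (background 2.11% lower), whose median was 0.00. Il33, an alarmin stored in nuclei of lung epithelium, was 11.65, 11.15 and 11.49 in radiation+fTyS, against 10.87, 10.94 and 10.79 in radiation+FTY (difference 0.57 ± 0.13, limma adjusted p = 0.0246). Radiation mice had 10.64 to 10.92. Il33 was the only called one of 20 cytokines and chemokines (background 1.84% higher).

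Of 17 p53 target genes, 2 were called higher (background 1.84%). Btg2, an antiproliferative early gene, was 12.00, 12.16 and 12.12 in radiation+fTyS, against 11.41, 11.51 and 11.64 in radiation+FTY (difference 0.57 ± 0.12, limma adjusted p = 0.0162). Mdm2, the ubiquitin ligase that restrains p53, was 10.61, 10.60 and 10.67 in radiation+fTyS, against 10.21, 10.21 and 10.42 in radiation+FTY (difference 0.35 ± 0.08, limma adjusted p = 0.0294). The list median was 0.04, so the other members lay on both sides of 0. Of 25 matrix genes Thbs1 and Postn, a matrix protein of activated fibroblasts (0.37), were called higher (background 1.84%) and 0 lower. Of 17 oxidative stress genes Srxn1, which repairs peroxiredoxins, was called lower (-0.56, limma adjusted p = 0.0193, background 2.11%). However, a second probe set of it above the filter differed by 0.14. The cell cycle, clock, heat shock, glucocorticoid, interferon, MHC class II, TGF-beta, barrier junction and cholesterol lists had 0 members called.

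**Figure D5:**
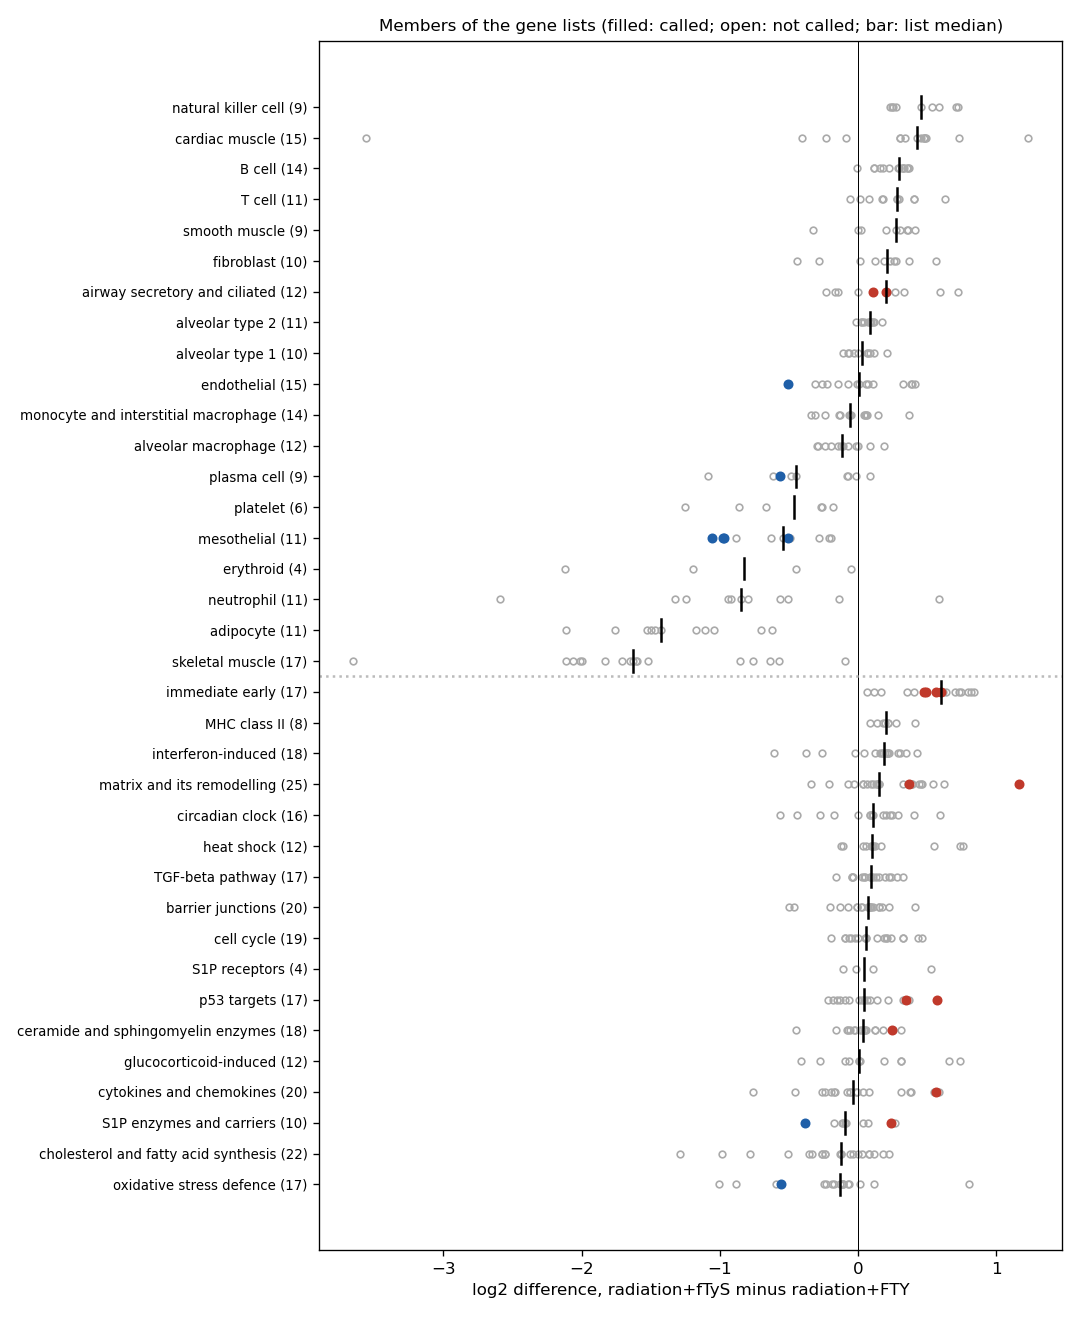
Log2 difference, radiation+fTyS minus radiation+FTY, of each tested member of the gene lists (number tested in brackets), with called genes filled, others open and list medians as bars, cell types above the dotted line and pathways below it. The mesothelial list has 4 filled points left of 0, and the immediate early list has 4 right of 0.

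Without radiation the same pair of compounds gave 0 called genes in limma (0% of 12937), with 769 at an unadjusted p under 0.05 and a smallest adjusted p of 0.0698. That smallest value belonged to Pld4, a lysosomal nuclease of dendritic and myeloid cells, which was 9.04, 8.97 and 8.90 in fTyS, against 8.27, 8.23 and 8.33 in FTY. In irradiated mice Pld4 differed by -0.04 (interval -0.28 to 0.20). For the 238 genes called higher in irradiated lung the median difference without radiation was -0.03, and for the 273 called lower it was 0.08. On FTY replicate 3 the T cell list averaged 10.10, against 7.70 and 7.96 on the other FTY arrays. The cell cycle list averaged 9.66 there, against 8.01 and 8.06. Without that array 0 genes were called in limma, and 906 had an unadjusted p under 0.05. Since all groups share 1 estimate of the spread, this array also enters the tests in irradiated lung.

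The change of the compound difference with radiation was tested as an interaction. It was called for 150 genes (1.16%), 48 of them positive (0.371%) and 102 negative (0.788%). This count was 0 without fTyS replicate 2 or radiation+fTyS replicate 1, and 1 to 61 without fTyS replicate 1, FTY replicate 1 or 2, radiation+fTyS replicate 3, or radiation+FTY replicate 1 or 2. It was 630 without fTyS replicate 3 and 383 without radiation+fTyS replicate 2. Creb5, a transcription factor that binds cAMP response elements, was 7.94, 7.24 and 7.73 in radiation+fTyS, against 7.04, 6.99 and 7.15 in radiation+FTY. Without radiation it was 7.04, 7.40 and 7.31 in fTyS, against 8.17, 8.53 and 7.69 in FTY. The order of the compounds was thus opposite with and without radiation, and the interaction was 1.46 (limma adjusted p = 0.0257). Klf3, a transcriptional repressor, had differences of 0.35 with radiation and -0.33 without it (interaction 0.68, limma adjusted p = 0.0216). The most negative interactions were those of the muscle genes Myh2 (-8.16) and Myl2 (-8.07). Slc2a3, a glucose transporter of leukocytes and platelets among other cells, had an interaction of -1.28.

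Set beside radiation alone, the called genes lay farther from it in radiation+FTY. The 238 genes higher in radiation+fTyS had a median of 0.13 in radiation+fTyS minus radiation and of -0.19 in radiation+FTY minus radiation. The 273 lower genes had medians of -0.09 in radiation+fTyS minus radiation and 0.26 in radiation+FTY minus radiation. These comparisons share arrays with each other and with the one that chose the genes, so the values are a description. Thbs1 differed from radiation by -0.20 in radiation+fTyS and by -1.36 in radiation+FTY, Jun by -0.06 and -0.54, and Upk3b by 0.15 and 1.20. Klf12, a transcriptional repressor, lay on the same side in both, at 0.65 and 0.36, with a compound difference of 0.29 (limma adjusted p = 0.0408). A second probe set of Klf12 differed by -0.14.

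The called genes also differed in length. The median genomic length, from the RefSeq annotation of GRCm38.p6, was 40.7 kb for genes called higher, 12.2 kb for genes called lower and 23.7 kb for all tested genes. In the fifth of shortest genes 0.698% were called higher and 3.61% lower, while in the fifth of longest genes 2.72% were called higher and 0.815% lower. Across genes, which are not independent, the rank correlation of difference and length was 0.17, against 0.02 without radiation. By array, the rank correlation of length with each gene's level less its mean over all arrays was 0.10, -0.11 and 0.20 in radiation+fTyS, against -0.21, -0.13 and -0.03 in radiation+FTY, so the groups overlapped through radiation+fTyS replicate 2. Its part in the list results was not tested.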

How the data were processed

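Lung RNA of 25 mice was hybridised to Affymetrix mouse arrays, 1 array per mouse. The deposited values are linear signal intensities of 45101 probe sets, made with GCOS per the submitters' processing notes; its version, summary method and scaling are not given in the sources used here. Array medians lay between 118.33 and 129.58, and the number of arrays limits the precision.

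Intensities were taken as log2(signal + 16). Each gene was represented by its probe set of highest mean (34945 probe sets name 1 gene, 932 several, 9160 none). Genes above the 40th percentile of probe sets, 12937 of 18193, were fitted with limma 3.58.1 in R 4.3.3 as 8 group means with 17 residual degrees of freedom, empirical Bayes with trend and Benjamini-Hochberg adjustment over all genes. The procedure was tested on simulated data.

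Named genes are the 10 largest increases and decreases among called genes without overlap, 5 and 5 for the other 2 contrasts (filled by smallest p), all S1P genes, and up to 4 called genes (otherwise the 2 of smallest p) of each of 36 lists, of whose 564 entries 483 were tested. Fos, Nr4a1 and the genes listed without values of their own were named after their values were seen. The same holds for the genes under Other observations, apart from Trib3, Slc7a5 and Thoc2l. Members and lists were chosen with earlier results of these data known.

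Alternatives covered scaling, pseudocount, filter, probe set choice, array weights, covariates, replicate block, smaller fits and each array left out; the 18S covariate was chosen after seeing the data.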

Additional observations from a re-analysis of the deposited data

Results flagged for a closer look

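For 16 named genes the interaction (radiation+fTyS minus radiation+FTY less fTyS minus FTY) had a limma adjusted p of at most 0.05. This held for 1.16% of all genes. Creb5, Klf10, Zfp948, Zfp60, Thoc2l, Myh2, Myl2, Myh7, Wt1 and Slc2a3 were named as the largest called interactions, so their passing was fixed in advance. Pld4, Sp1, Klf3 and Wfs1 were named from contrasts that enter the interaction, and Sphk2 and Rspo1 from their lists. The count of 16 is therefore a description. Positive interactions were those of Creb5 (1.46), Klf10 (0.86), Zfp948 (0.80), Zfp60 (0.80), Thoc2l (0.78) and Klf3 (0.68). Negative ones were those of Sp1 (-0.32), Sphk2 (-0.54), Rspo1 (-0.73), Pld4 (-0.73), Wfs1 (-0.91), Slc2a3 (-1.28), Wt1 (-1.52), Myh7 (-4.51), Myl2 (-8.07) and Myh2 (-8.16). For Thoc2l the difference was 0.79 with radiation and 0.01 without it, and for Wt1 it was -0.97 and 0.55. For Myh2 and Myl2 the FTY arrays had 5.20 to 5.91 and 5.31 to 5.42, while fTyS arrays had 6.67 to 12.10 and 8.72 to 11.46.

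Control replicate 2 stood apart from the other control arrays in 2 of 36 list means tested, and chance gives about 1 in 20 such cases. Its skeletal muscle mean was 11.19, against 6.55 to 6.86 on the others, and its T cell mean was 7.83, against 8.03 to 8.05.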

How the results depend on the processing

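The 511 genes called between radiation+fTyS and radiation+FTY became 329 without a filter on low values, 2500 with array weights, 27 with only the irradiated arrays, 0 with only the arrays compared and 0 with the 18S covariate. Leaving out each array gave 6 to 932. Other settings gave 342 to 586. Averaging all probe sets of a gene gave 360 higher and 226 lower, and leaving out radiation+FTY replicate 3 gave 386 higher and 226 lower. For fTyS against FTY, 827 genes were called with array weights and 1 without control replicate 4, whose p53 target mean of 10.26 lay above the 9.51 to 9.70 of the other unirradiated arrays. All other settings gave 0. The 150 interactions became 74 after median centring, 67 without the filter, 2938 with array weights, 60 with the skeletal muscle covariate, 0 with only the arrays compared and 0 with the 18S covariate (1962 and 1198 at an unadjusted p under 0.05), and 0 to 630 with an array left out. Same-numbered radiation+fTyS and radiation+FTY arrays deviated with correlations of -0.73, -0.67 and 0.13, so the numbers were not taken to pair mice in this comparison. The correlations were 0.26, 0.76 and 0.52 between radiation+fTyS and fTyS, 0.22, 0.38 and -0.11 between radiation+FTY and FTY, and 0.09, -0.33 and -0.16 between fTyS and FTY. With a replicate block 499, 0 and 120 genes were called for the 3 contrasts. The 20 genes of largest change gave 464 recomputed values, of which 302 were called, 162 were not and 0 reversed. No list median changed sign with scaling, and 35 of 864 recomputed list medians moved by more than the spread between arrays. The causes were not tested. With 3 mice a group, the median half-width of the 95% interval was 0.22.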

Other observations

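Beside Trib3 and Slc7a5, further genes of the amino acid stress response lay lower in radiation+fTyS. The set of 14 was chosen after values were seen, so its counts are a description: 4 were called lower (background 2.11%), 0 higher, and 7 lay lower without overlap (background 12.1%). Shmt2, a mitochondrial serine enzyme, differed by -0.56 (limma adjusted p = 0.0297), and Nupr1, a stress-induced chromatin protein, by -0.40 (limma adjusted p = 0.0408). Chac1, a glutathione-degrading enzyme, differed by -0.85 without being called (limma adjusted p = 0.0686). Phgdh, the first enzyme of serine synthesis, differed by -0.80 (limma adjusted p = 0.245), and Asns, Ddit3 and Atf4 by -0.17, -0.11 and 0.01. With the 18S covariate the difference was -0.29 for Shmt2, -0.32 for Phgdh and 0.02 for Ddit3.

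Of the 3 genes of smallest p, Thoc2l was also among those of largest change, and the other two were Azin1 and Zfp53. Azin1, an inhibitor of antizyme in polyamine metabolism, was higher by 0.40 ± 0.06, Zfp53 by 0.51 ± 0.07 and Naa15, a subunit of an N-terminal acetyltransferase, by 0.50 ± 0.07. Trub2, a pseudouridine synthase, was lower by 0.61 on the log2 scale, and Keap1, the sensor that restrains Nrf2, had a difference of -0.39. Malat1, a nuclear long RNA, was higher by 0.45 (limma adjusted p = 0.00995), while Neat1, another, differed by 0.07 (limma adjusted p = 0.531). All of the called ones lost their call with the 18S covariate, under which the smallest adjusted p among them was 0.11.

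The mean of the 238 higher genes less that of the 273 lower genes, set to 0 in control, was 0.17 in radiation+fTyS, -0.58 in radiation+FTY, -0.24 in radiation+SEW, -0.09 in radiation, -0.05 in fTyS, 0.06 in FTY and 0.18 in SEW (SEW-2871 without radiation). The 18S means of these groups were 12.94, 11.99, 12.34, 12.71, 12.52, 12.80 and 12.93. By array, radiation+FTY had values of -0.63, -0.62 and -0.49, at 18S levels of 11.39, 12.70 and 11.88. The first 2 groups chose the genes.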
